A study of Mus musculus with 4 samples.

Results

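The Alad and Hdhd3 locus is a stretch of mouse chromosome 4, 62.3 to 62.7 Mb on GRCm38 (mm10), in which H3K27ac HiChIP contacts were compared between C57BL/6J (B6) and DBA/2J (D2) embryonic stem cells. In HiChIP, DNA ends that lie close in the fixed nucleus are ligated to each other, and an antibody, here against the histone mark H3K27ac, enriches the ligated fragments before sequencing, so that a count joins a pair of genomic intervals called anchors. The locus was taken as all anchor pairs of the deposited count table with at least 1 anchor overlapping the interval, which gave 471 of 1513030 pairs and 17 of 56562 anchors. It was chosen because D2 counts there were known to be higher than B6 counts. The differences between strains inside it are therefore given as a description, and the calls of the fit over the whole table, where given, are no independent support for them.

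Each strain was represented by 2 lines with 1 library each. B6 replicates 1 and 2 came from lines B6 4-1 and B6 5-1, both of genotype C57BL/6J, and D2 replicates 1 and 2 from lines D2 2-9 and D2 5-5, both of genotype DBA/2J. All lines were grown in medium with 15% serum, LIF and 2 inhibitors, 1 μM PD0325901 and 3 μM CHIR99021. The labels do not say whether lines came from separate embryos, so the spread between replicates is the spread between these lines and libraries. Total counts lay between 2767882 and 2944258 per library, and levels below are CPM, the count divided by the library total and scaled to 1000000. One library, D2 replicate 1, has 10cyc in its name where the other 3 have 8cyc. Of 10 pluripotency genes, 7 had an anchor over a start site, with summed levels of 1767 to 2831 CPM per library, the highest in D2 replicate 1. Of 5 fibroblast or feeder genes 2 had one (4.70 to 10.3 CPM), of 5 primitive endoderm genes 5 (101.2 to 115.2 CPM), and of 4 mesoderm and neural genes 4 (77.7 to 96.8 CPM). Esrrb, Klf2, Tfcp2l1, Col1a1, Col1a2 and Postn had no such anchor.

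H3K27ac marks active promoters and enhancers, and contacts between marked sites are read as loops of active chromatin. Alad encodes delta-aminolevulinate dehydratase, the heme synthesis enzyme that joins molecules of aminolevulinic acid into porphobilinogen and that lead inhibits. Hdhd3 encodes a protein of the haloacid dehalogenase-like hydrolase family. DBA/2 mice have long been known to carry extra copies of Alad and to have high activity of the enzyme. Copy number was not measured in these libraries, and the number of DNA copies, the H3K27ac signal and the contact frequency of a locus cannot be told apart in HiChIP counts.

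Both genes lie on the minus strand, Hdhd3 (ENSMUSG00000038422.2) at 62499008 to 62503467 and Alad (ENSMUSG00000028393.10) at 62509169 to 62519918. The promoters of both fall inside anchors, and the bases before their start sites are shown because all values of the genes below come from anchors over them. Capitals mark GGGCGG and CACGTG on either strand, and the sequences are RefSeq's on GRCm38.p6, minus strand. The Hdhd3 stretch (174 bases, chr4:62502277-62502450) ends at the Hdhd3 transcript start of lowest coordinate in GENCODE. It lies inside the annotated gene, which reaches 62503467. The Alad stretch (250 bases, chr4:62520064-62520313) ends at the more distal RefSeq start.
Hdhd3: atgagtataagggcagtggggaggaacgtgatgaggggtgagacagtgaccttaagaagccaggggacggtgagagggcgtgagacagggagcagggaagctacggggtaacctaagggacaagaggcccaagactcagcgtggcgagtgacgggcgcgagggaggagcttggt
Alad: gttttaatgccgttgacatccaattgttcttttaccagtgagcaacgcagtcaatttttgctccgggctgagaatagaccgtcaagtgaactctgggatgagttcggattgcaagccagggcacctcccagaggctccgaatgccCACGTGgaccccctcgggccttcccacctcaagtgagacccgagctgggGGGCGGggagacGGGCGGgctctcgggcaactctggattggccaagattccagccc
The Alad stretch held 2 matches to GGGCGG, a motif present in 32.7% of 32851 RefSeq promoter windows cut to the same length, and 1 match to CACGTG, present in 6.02%. It also held 2 matches to CCAAT (33.8% of windows) and none to TATAAA (12.4%). None of the 4 motifs, searched on both strands with no overlap among them, was found in the Hdhd3 stretch, which says only that these letters are not in it. GC content was 60.3% before Hdhd3 and 58.4% before Alad, with 9 and 13 CG dinucleotides.

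The anchor over the Hdhd3 start site (62500090 to 62505658) held 57 counts in B6 replicate 1, 57 in B6 replicate 2, 173 in D2 replicate 1 and 195 in D2 replicate 2. Both D2 libraries were high and both B6 libraries low, with no overlap. The mean was 20.0 ± 0.532 CPM for the B6 lines and 64.4 ± 2.64 CPM for the D2 lines (SD, n = 2). The fitted log2 fold change of D2 over B6 was 1.72 (SE 0.18, edgeR with TMM normalization), and 26 of the 51820 tested anchors had a higher one. The anchor covers 75.7% of the Hdhd3 gene.

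The anchor over the Alad start site (62515940 to 62527548) held 137 and 129 counts in B6 replicates 1 and 2, and 311 and 353 counts in D2 replicates 1 and 2. Again the strains did not overlap, and the lower D2 library stood at 2.39 times the higher B6 library, against 3.07 times for the Hdhd3 anchor. The mean was 46.6 ± 0.741 CPM for the B6 lines and 116.1 ± 5.33 CPM for the D2 lines (SD, n = 2), and the fitted log2 fold change 1.35 (SE 0.16). The anchor covers 37.0% of Alad, from its start site inwards, and all of Pole3, which encodes a histone-fold subunit of DNA polymerase epsilon. It also holds the start site of 4933430I17Rik on the opposite strand. Counts of an anchor cannot be divided among these genes, so the value called Alad here is also that of Pole3 and 4933430I17Rik.

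The third anchor of the raised stretch (62528926 to 62532617), inside 4933430I17Rik over an exon and without a start site, held 42 and 38 counts in B6 and 58 and 76 counts in D2. Its D2 libraries lay above its B6 libraries by less than at Hdhd3 and Alad. The mean was 14.0 ± 0.618 CPM for the B6 lines and 23.4 ± 3.44 CPM for the D2 lines (SD, n = 2), and the fitted log2 fold change 0.78 (SE 0.22).

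Where the shift starts and ends was read from the order of anchors. An anchor was called raised when both D2 libraries lay above both B6 libraries and the ratio of strain means was at least 1.5, which 3.75% of all tested anchors met. The unbroken series of raised anchors around Hdhd3 held the 3 anchors just described and ran from 62500090 to 62532617, 32.5 kb. The outer neighbour before it, over the start site of Bspry (62477690 to 62481400), had 50 and 39 counts in B6 and 59 and 63 in D2, a log2 ratio of 0.46. The outer neighbour after it (62544280 to 62546720), over an exon of 4933430I17Rik, had 37 and 32 counts in B6 and 36 and 45 in D2, a log2 ratio of 0.23. Both neighbours lay under the ratio that counts as raised, and in both the D2 libraries still lay above the B6 libraries in CPM.

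**Figure D1:**
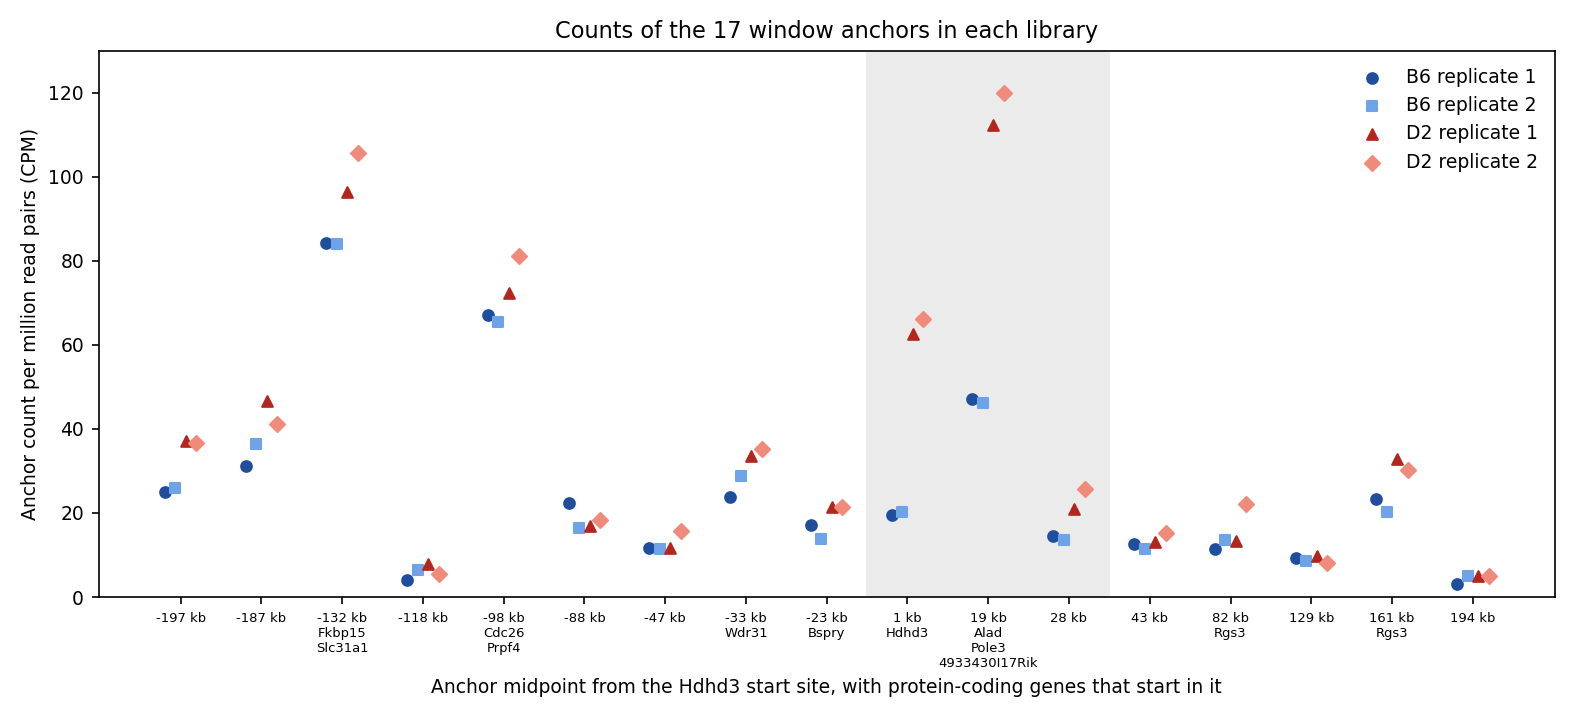
CPM (y axis, linear from 0) of the 17 anchors of the window, in genome order, with 1 point per library and the midpoint of each anchor given in kb from the Hdhd3 start site. In the shaded run of 3 anchors the D2 points stand apart from the B6 points, most clearly at Hdhd3 (62.5 and 66.2 CPM against 19.6 and 20.4 CPM) and at Alad (112.4 and 119.9 CPM against 47.1 and 46.1 CPM).

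The ends of the shift cannot be placed more finely than the gaps between anchors. No anchor lay in the 18.7 kb before the run, which hold 62 GATC sites (the sequence cut by DpnII, the enzyme of the protocol), or in the 11.7 kb after it, with 28 sites. The gap of 10.3 kb between the Hdhd3 and Alad anchors, with 32 sites, covers most of the Alad gene body and also held no anchor. The sites that bound the run and its outer neighbours are shown, 28 bases on the plus strand with the cut site in capitals, since they are the limits of what was counted.
End of the Bspry anchor, chr4:62481388-62481415: aaaccactttttGATCtcagtggttatg
Start of the run, chr4:62500078-62500105: ctttcagcacaaGATCctggaatgaaaa
End of the run, chr4:62532605-62532632: accttccccaaaGATCgtccctcattgt
Start of the next anchor, chr4:62544268-62544295: ttttggagctctGATCtcatatgactga

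Both ends moved with the settings. On the right, the ratio fell in steps, with log2 ratios of 1.69, 1.32 and 0.74 over the 3 anchors of the run and 0.23 at the next. With a ratio of at least 2 required, the run was the Hdhd3 and Alad anchors alone (62500090 to 62527548, 27.5 kb). Leaving out D2 replicate 2 gave the same 2 anchors, so that the place of the third rests on that library. On the left, the Bspry anchor joined the run when B6 replicate 1 was left out, and the Bspry and Wdr31 anchors joined it when a D2 mean 25% above the B6 mean sufficed (from 62466953, 65.7 kb). Both ends moved when only pairs with a deposited value, taken as a q-value, under 0.01 in at least 1 library were summed. This gave a run of 6 anchors from 62466953 to 62667925, 201 kb.

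An anchor's count includes its pairs with its neighbours, so an anchor can be high through a partner. With the pairs among the 3 run anchors set aside, Hdhd3 kept 36 and 37 counts in B6 and 87 and 111 in D2, a log2 ratio of 1.43. Alad kept 99 and 96 counts in B6 and 202 and 242 in D2, a log2 ratio of 1.18. The third anchor kept 25 and 21 counts in B6 and 27 and 43 in D2, a log2 ratio of 0.60, which is just above the ratio of 1.5 and rests on D2 replicate 2. Pairs with the other run anchors made up 36.0% of the Hdhd3 counts in B6 and 46.2% in D2, and 26.7% and 33.1% of the Alad counts.

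The other 14 anchors of the window showed smaller differences. Their log2 ratios ran from -0.13 to 0.53 with a median of 0.33, against -0.03 over all tested anchors, and 13 of 14 were above 0. With the pairs that reach the run set aside, the median was 0.16 (range -0.24 to 0.46) and 11 of 14 were above 0. The highest were the anchor over an exon of Fkbp15 at the edge of the window (62300735 to 62309244), with 73 and 73 counts in B6 and 103 and 108 in D2, and an anchor over a start site of Rgs3, a regulator of G protein signalling (62657667 to 62667925), with 68 and 57 counts in B6 and 91 and 89 in D2. Set aside from the run, the log2 ratio was 0.46 for the Fkbp15 exon and 0.24 for Rgs3. The lowest was an anchor over an exon of Prpf4 (62413433 to 62415936), with 65 and 46 counts in B6 and 47 and 54 in D2, where the strains overlapped.

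The remaining start-site anchors of the window lay between these. The broad anchor shared by Fkbp15 and Slc31a1, the gene of a copper importer, held 245 and 235 counts in B6 and 267 and 311 in D2, a log2 ratio of 0.27. The anchor shared by Cdc26, a subunit of the anaphase-promoting complex, and Prpf4, a splicing factor, held 195 and 183 counts in B6 and 200 and 239 in D2, a log2 ratio of 0.21. In both, the D2 libraries were above the B6 libraries in CPM by a margin far smaller than at Hdhd3. The Wdr31 anchor held 69 and 81 counts in B6 and 93 and 104 in D2 (log2 ratio 0.39). An anchor over another start site of Rgs3 (62582002 to 62586760) held 33 and 38 counts in B6 and 37 and 65 in D2, where the strains overlapped. Rnf183, which encodes a RING finger ubiquitin ligase, had no anchor over a start site.

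In the edgeR quasi-likelihood fit over all anchors (Benjamini-Hochberg), 4 of the 17 anchors were called higher in D2 and 0 lower, where 2.67% of all tested anchors were called higher. They were the 3 run anchors and the Fkbp15 exon at 62300735. The strains did not overlap, with D2 above, in 12 of the 17 anchors, against 21.5% of all tested anchors. The locus was picked on this contrast, so nothing is read from these counts. The DESeq2 Wald test and the fits with either B6 library or with D2 replicate 1 left out called 2 anchors, and the fit without D2 replicate 2 called 5.

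At the edges of the window, the outermost anchors inside and outside had similar ratios. On the left, the log2 ratio was 0.53 at the first anchor inside (62300735) and 0.46 at the last outside (62282488 to 62290213, over a start site of Slc31a2, with 87 and 98 counts in B6 and 133 and 122 in D2). On the right, it was 0.33 at the last anchor inside (62695150 to 62696970, with 9 and 14 counts in B6 and 14 and 15 in D2) and 0.20 at the first outside (62721358 to 62724155, with 24 and 13 counts in B6 and 23 and 19 in D2). Over the wider region of 61.3 to 63.7 Mb, the 17 tested anchors before the window had a median log2 ratio of 0.64 and the 15 after it -0.23.

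**Figure D2:**
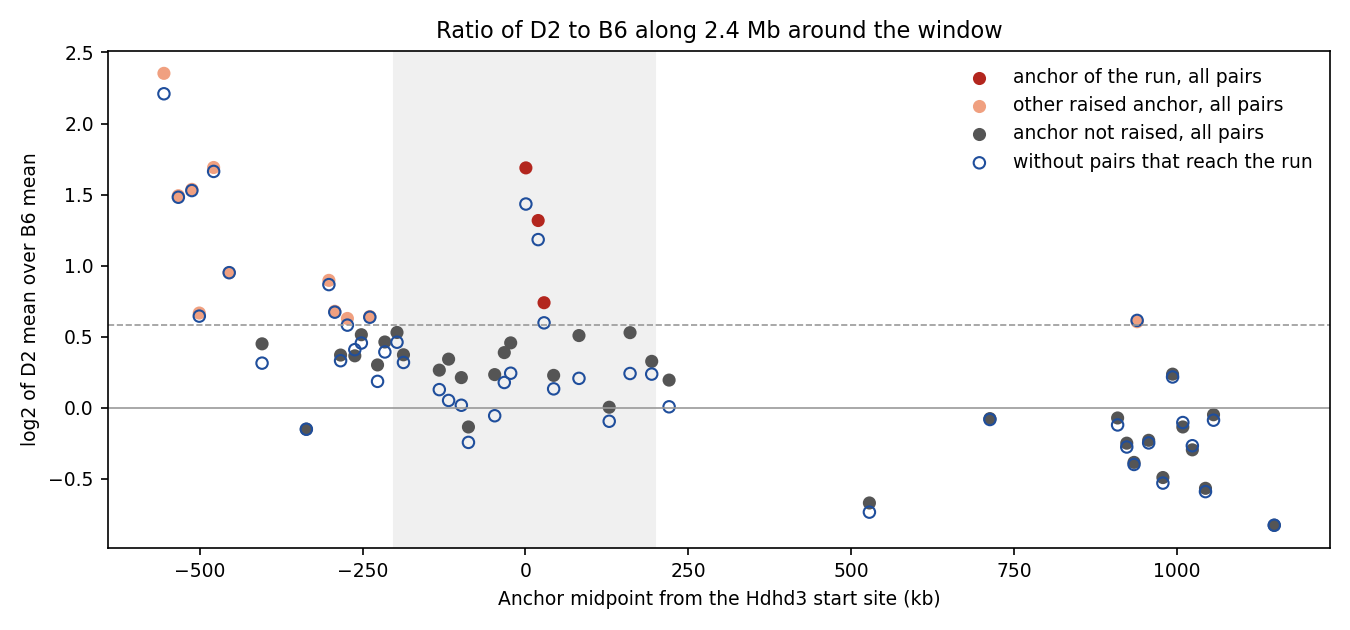
Log2 of the D2 mean over the B6 mean (y axis) for each tested anchor against its distance from the Hdhd3 start site in kb (x axis), with the window shaded, the solid line at equal levels and the dashed line at a ratio of 1.5. Filled points use all pairs of an anchor and open circles leave out the pairs that reach the run (for the 3 run anchors, the pairs among them); Hdhd3 and Alad stand at 1.69 and 1.32, above all other anchors of the window.

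Per kb of anchor, Hdhd3 and Alad were ordinary in B6 and led the window in D2. The Hdhd3 anchor had 3.52 and 3.65 CPM per kb in B6, rank 10 of 17 by the strain mean, and 11.2 and 11.9 CPM per kb in D2, rank 1. The Alad anchor had 4.06 and 3.97 CPM per kb in B6, rank 7, and 9.68 and 10.3 CPM per kb in D2, rank 2. The Prpf4 exon anchor, rank 1 in B6 at a mean of 7.75 CPM per kb, had rank 3 in D2 at 7.06. The Alad anchor was wide, at 11608 bp (wider than 89.7% of all anchors), and the Hdhd3 anchor was 5568 bp (67.8%). Their GC contents, 47.0% in both, were higher than in 65.6% and 65.7% of anchors, and the third run anchor had 45.3%, near the median of 45.2%.

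Among the 10 pairs of the window with the most counts, the one that joins the 2 genes had the highest ratio. The pair of the Hdhd3 and Alad anchors, 18.9 kb apart, held 21 counts in B6 replicate 1, 18 in B6 replicate 2, 82 in D2 replicate 1 and 81 in D2 replicate 2. The D2 libraries were alike and both were far above the B6 libraries. Scaled, the B6 mean was 6.82 ± 0.561 CPM and the D2 mean 28.6 ± 1.50 CPM (SD, n = 2), a ratio of 4.19, and the fitted log2 fold change was 2.00 (SE 0.29). The deposited single-library value taken as a q-value was under 0.01 in all 4 libraries. In B6 this pair stood far below the strongest pair of the window, which joined the Fkbp15 and Slc31a1 anchor to the Cdc26 and Prpf4 anchor with 72 and 56 counts in B6 and 62 and 73 in D2. In D2 it stood above it. The anchors of these pairs differ in width, so this is an order of counts and not of contact per length.

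The other pairs within the run were weaker. The Alad anchor and the third anchor, 9.03 kb apart, held 17 and 15 counts in B6 and 27 and 30 in D2, a log2 ratio of 0.83. The Hdhd3 anchor and the third anchor, 27.9 kb apart, held 0 and 2 counts in B6 and 4 and 3 in D2, too few to order. In sum, the 3 pairs within the run had a B6 mean of 12.8 ± 0.403 CPM and a D2 mean of 39.8 ± 1.49 CPM (SD, n = 2). The log2 ratio was 1.64.

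The 120 pairs with 1 anchor in the run held 160 and 154 counts in B6 and 316 and 396 in D2. Their B6 mean was 55.0 ± 0.0219 CPM and their D2 mean 124.3 ± 14.4 CPM (SD, n = 2). The log2 ratio was 1.18. The 348 pairs with no anchor in the run held 579 and 550 counts in B6 and 600 and 667 in D2, with means of 197.7 ± 1.92 CPM and 221.7 ± 6.91 CPM (SD, n = 2). The log2 ratio was 0.16. The ratio of D2 to B6 was thus 3.11 for pairs within the run, 2.26 for pairs that leave it and 1.12 for the rest of the window. The classes were set by the measured shift, so their order is a description.

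**Figure D3:**
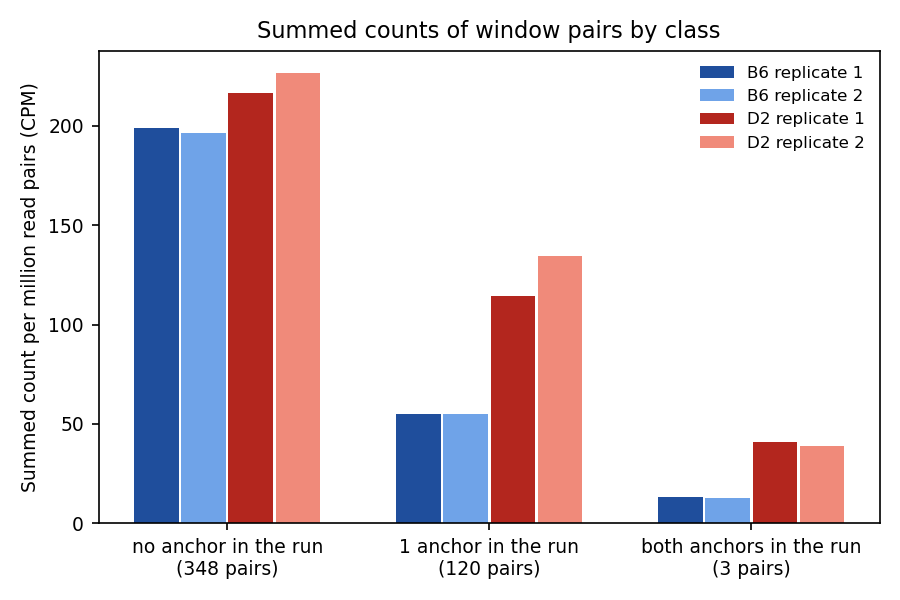
Summed CPM (y axis, from 0) of the 471 window pairs, split by how many of their anchors lie in the run, with 1 bar per library. Both D2 bars exceed both B6 bars in each class, by ratios of strain means of 1.12, 2.26 and 3.11 from left to right.

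Summed, the pairs that leave the run were higher in D2 on both sides and in each range of distance. Towards lower coordinates, 67 pairs held 106 and 105 counts in B6 and 228 and 280 in D2, a log2 ratio of 1.26. Towards higher coordinates, 53 pairs held 54 and 49 counts in B6 and 88 and 116 in D2, a log2 ratio of 0.98. By distance, the log2 ratio was 0.83 under 50 kb (7 pairs), 1.20 from 50 to 200 kb (31 pairs) and 1.34 from 200 to 2000 kb (82 pairs). In each of these groups both D2 libraries lay above both B6 libraries.

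Alad shared more counts with the neighbouring promoters in D2. With the Fkbp15 and Slc31a1 anchor, 151.8 kb away, it shared 10 and 16 counts in B6 and 32 and 35 in D2 (log2 ratio 1.36), and with the Cdc26 and Prpf4 anchor, 118.0 kb away, 13 and 14 counts in B6 and 30 and 31 in D2 (log2 ratio 1.17). On the other side, with the Rgs3 anchor at 62657667, 141.1 kb away, it shared 9 and 8 counts in B6 and 20 and 18 in D2 (log2 ratio 1.16). In each of these pairs the strains did not overlap. Between the partners of Alad that lie before it, the Fkbp15 and Slc31a1 anchor and the Cdc26 and Prpf4 anchor, the contact had a log2 ratio of 0.08. With the Rgs3 anchor at 62582002, 62.6 kb away, Alad shared 4 and 1 counts in B6 and 8 and 16 in D2. With the anchor just after the run it shared 11 and 7 counts in B6 and 11 and 14 in D2, the smallest shift among these.

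Hdhd3 had the same partners at lower counts. It shared 6 and 8 counts in B6 and 14 and 18 in D2 with the Fkbp15 and Slc31a1 anchor, and 5 and 4 counts in B6 and 11 and 16 in D2 with the Cdc26 and Prpf4 anchor. With Wdr31, 33.2 kb away, it shared 3 and 3 counts in B6 and 13 and 10 in D2. With its nearest neighbour before the run, Bspry, it shared 5 and 5 counts in B6 and 6 and 6 in D2, nearly equal in the strains. With the anchor just after the run it shared 0 and 5 counts in B6 and 2 and 1 in D2, too few to order. The Alad and Bspry pair held 5 and 7 counts in B6 and 13 and 15 in D2.

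Hdhd3 and Alad were also seen with more partners in D2. The Hdhd3 anchor had 43 partners over all libraries, 18 and 17 of them with a count in B6 and 30 and 35 in D2. Of its partners, 17 had no B6 count and 4 no D2 count, and none of the 17 exceeded 5 counts in D2. The Alad anchor had 46 partners, 29 and 26 with a count in B6 and 34 and 41 in D2, with 11 lacking a B6 count and 1 lacking a D2 count. The D2 mean was higher for 37 of 43 Hdhd3 partners and 39 of 46 Alad partners, against 25 of 37 for the third anchor. The number of partners seen follows the number of counts, so it is no measure apart from the levels above. Partners lay up to 1885 kb from Hdhd3 and 1905 kb from Alad.

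**Figure D4:**
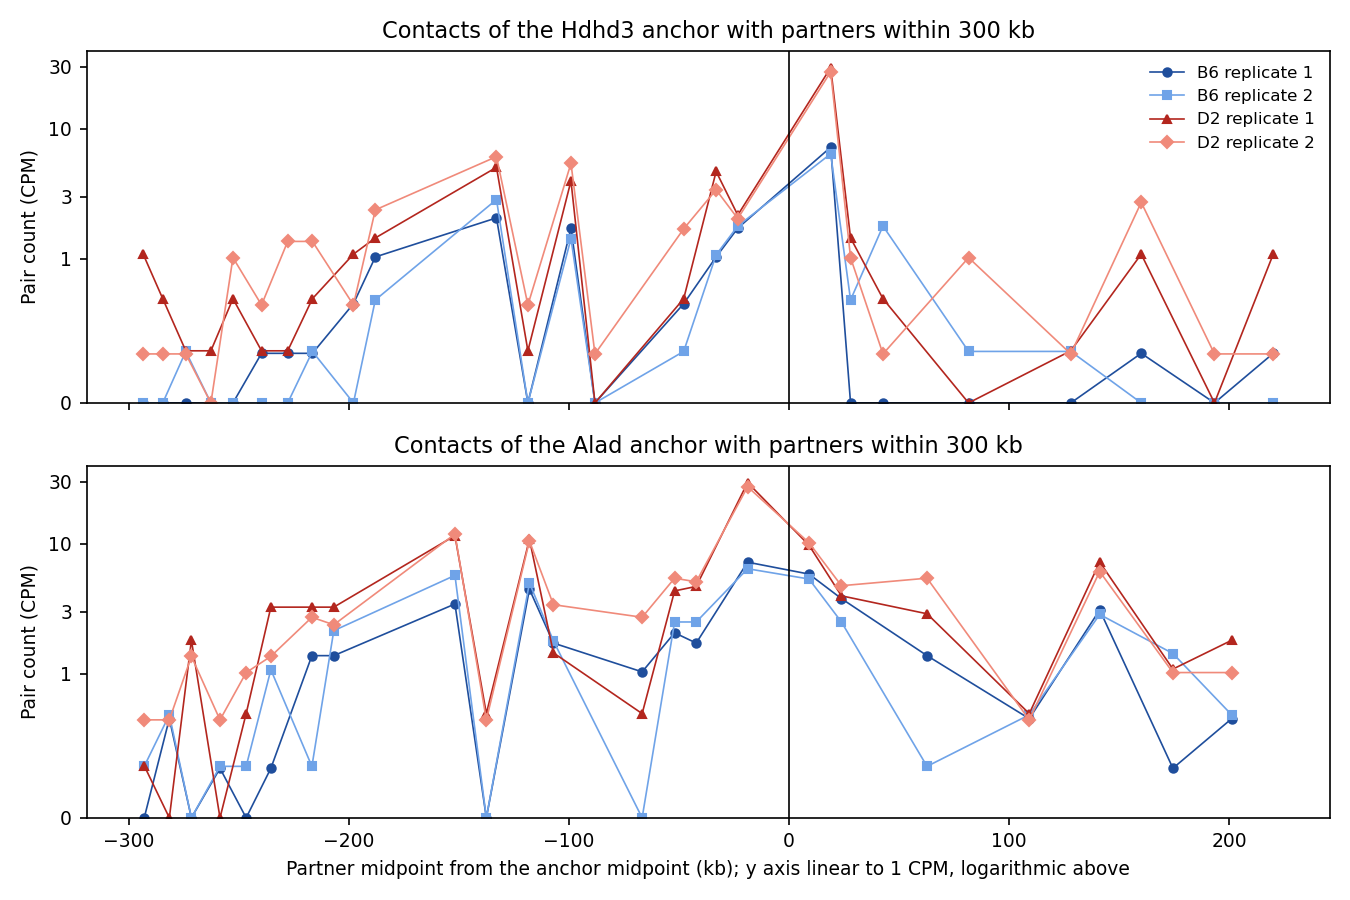
CPM (y axis, linear to 1 CPM and logarithmic above) of each pair that joins the Hdhd3 anchor (upper panel) or the Alad anchor (lower panel) to a partner within 300 kb, against the distance of the partner in kb, with 1 line per library. The tallest peak in both panels is the pair that joins the 2 anchors, at 7.22 and 6.43 CPM in B6 and 29.6 and 27.5 CPM in D2.

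Of the 471 pairs, 44 had at least 20 counts over the 4 libraries and were tested. Among them, 2 were called higher in D2 and 0 lower in the edgeR quasi-likelihood fit over all pairs (Benjamini-Hochberg), where 0.492% of all tested pairs were called higher. These were the pair of Hdhd3 with Alad and the pair of Alad with the Fkbp15 and Slc31a1 anchor. D2 lay above B6 without overlap in 23 of the 44 pairs, against 23.8% of all tested pairs. These were 13 of the 14 tested pairs with 1 anchor in the run, both tested pairs within it and 8 of the 28 others. The choice of the locus used this contrast, and nothing is read from these counts either. Each fit with a library left out called 1 of the 44 pairs.

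Some pairs outside the run went the other way. In 4 of the 28, both D2 libraries lay below both B6 libraries. No share of such pairs over the whole table is at hand, so this count is a description and nothing is read from it. The Fkbp15 and Slc31a1 anchor shared 22 and 23 counts in B6 and 20 and 15 in D2 with an anchor over an exon of Fkbp15 (62310994 to 62318859), and 14 and 10 counts in B6 and 7 and 7 in D2 with the Prpf4 exon. Among pairs higher in D2 outside the run, the neighbouring Fkbp15 exon anchors at 62300735 and 62310994 shared 8 and 12 counts in B6 and 24 and 21 in D2, a log2 ratio of 1.17. The pair with the highest ratio joined an intergenic anchor at 61960274 to the Fkbp15 and Slc31a1 anchor, 400.7 kb away, with 0 and 3 counts in B6 and 9 and 8 in D2.

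**Figure D5:**
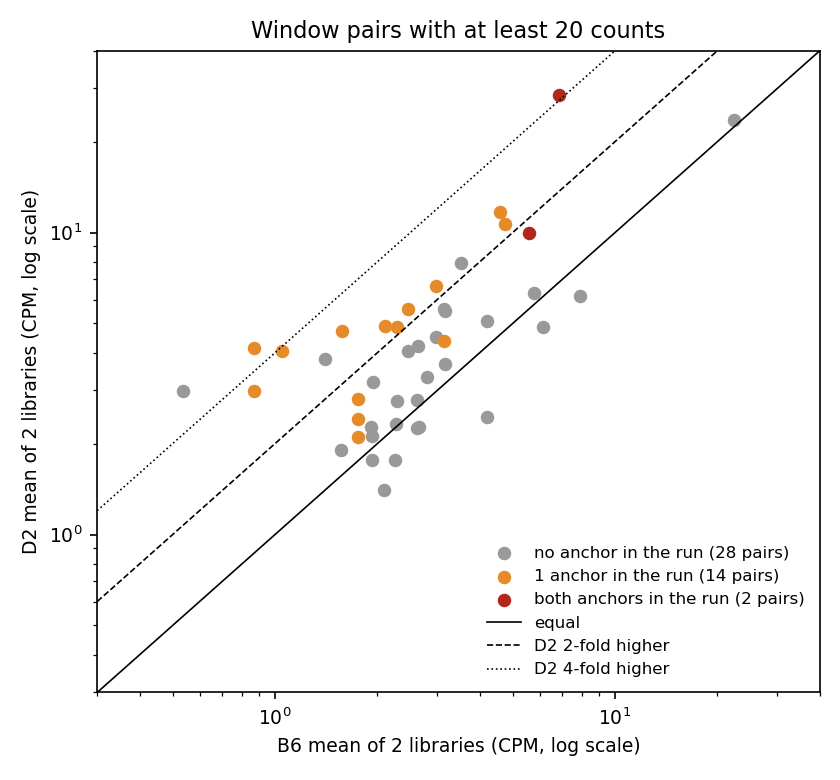
Mean CPM of the 2 D2 libraries (y axis, log scale) against the mean CPM of the 2 B6 libraries (x axis, log scale) for the 44 window pairs with at least 20 counts, coloured by how many of their anchors lie in the run. The pair of Hdhd3 with Alad lies just above the 4-fold line (ratio 4.19), the tested pairs with 1 anchor in the run range in log2 ratio from 0.26 to 2.26, and the pair of the Fkbp15 and Slc31a1 anchor with the Cdc26 and Prpf4 anchor lies near the line of equal levels.

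Further autosomal genes of heme synthesis were set beside Alad, since the choice of the locus did not use them. All 6 described (Alas1, Uros, Urod, Cpox, Ppox and Fech) had an anchor over a start site, and 1 was called higher and 0 lower in D2 in the same edgeR fit adjusted over all anchors, where 9.75% of all tested anchors were called in either direction. The unadjusted p of this fit was under 0.05 for 2 of 6, Uros, higher in D2, and Alas1, lower in D2. No share of such anchors over the whole table is at hand, so nothing is read from this count. The median log2 fold change of the 6 genes was 0.17, against 0.01 over all tested anchors. The gene called was Uros, which encodes uroporphyrinogen III synthase and shares its anchor with Bccip. It had 114 and 95 counts in B6 and 163 and 131 in D2, and D2 was higher by 0.54 on the log2 scale (SE 0.18; 0.26 to 0.78 over the alternatives) with a Benjamini-Hochberg adjusted p of 0.0485 from edgeR. The adjusted p fell to 0.000582 when D2 replicate 2 was left out and rose to 0.557 when D2 replicate 1 was, the extremes of the 10 edgeR and DESeq2 alternatives, and among them Uros was called only without D2 replicate 2 and with the replicate block.

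Alas1, which encodes the enzyme of the step before Alad, had 264 and 228 counts in B6 and 184 and 194 in D2, and each D2 library lay below each B6 library. The fitted difference was -0.34 on the log2 scale (SE 0.16; -0.44 to -0.25 over the alternatives), and the adjusted p from edgeR, 0.186, missed the threshold. None of the remaining 4 genes passed the threshold in this fit, and their log2 fold changes were 0.20 for Urod, 0.14 for Cpox, -0.26 for Ppox and 0.32 for Fech. Over the alternatives these ranged from 0.06 to 0.33 for Urod, from -0.08 to 0.39 for Cpox, from -0.48 to -0.07 for Ppox and from 0.15 to 0.47 for Fech. The Urod anchor is shared with Hectd3, and the Ppox anchor with Ufc1 and Usp21. The fitted value of the Alad anchor, 1.35, is given above as a description and is not compared by a test.

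Elsewhere in the genome, the start-site anchors with the pattern most like Hdhd3 over the 4 libraries were found by the Euclidean distance between centred log2 CPM profiles, among 13199 anchors over protein-coding start sites with at least 100 counts. The nearest 5 were those of Zfp960 on chromosome 17 (distance 0.44), Sult3a2 on chromosome 10 (0.47), Rims2 on chromosome 15 (0.51), and Hint3 (0.59) and Zfp873 (0.61) on chromosome 10. Their counts in B6 and D2 were 137, 115, 341 and 306 for Zfp960, and 66, 76, 219 and 170 for Sult3a2. With 4 libraries in 2 groups, such a profile is little more than the size of the difference, and it says nothing of a shared function.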

How the data were processed

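HiChIP read-pair counts of 4 libraries were used. Per the submitters' processing notes, HiC-Pro 2.11.4, DESeq2 and the mm10 build were used, with no roles given; other settings are not given in the sources used here. The raw counts per anchor pair were deposited by the authors with no normalization. The deposited single-library files repeat the counts, with 0 unequal, and add a value between 0 and 1 taken as the q-value of the authors' loop caller. All 56562 anchors start and end at a GATC site of GRCm38, and coordinates are printed as deposited. Genes are from GENCODE M21.

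Anchor counts are sums over an anchor's pairs. CPM uses library totals. Anchors and pairs with at least 20 counts were fitted over the whole table with edgeR 4.0.16 (R 4.3.3, TMM, strain as the term, Benjamini-Hochberg adjustment, threshold 0.05). The code was also run on simulated counts with the same dispersion for all features, which is no check of the calls made here. DESeq2 1.42.0 was an alternative. Standard errors printed with edgeR values were derived, as the absolute fitted coefficient divided by the square root of its quasi-likelihood F statistic. With 2 libraries a strain the smallest exact permutation p is 0.333, so none was computed for single values. The members, lists and alternatives were chosen with earlier results of these data known. Named are Alad, Hdhd3, protein-coding genes starting in the window, the heme list, the 5 most similar start-site anchors, the 10 pairs with the most counts, and the ends of the run with their neighbours; other pairs and anchors singled out were chosen after their values were seen. Of the heme list, 1 gene is not reported here and is left out of its counts.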

Additional observations from a re-analysis of the deposited data

How the results depend on the processing

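The log2 fold change stayed between 1.50 and 1.74 for the Hdhd3 anchor and between 1.24 and 1.38 for the Alad anchor over all alternatives run, with the lowest values, 1.50 and 1.24, when only pairs of at least 20 kb were summed, which drops the contact between the 2 anchors. Leaving out single libraries gave 1.71 to 1.74 and 1.32 to 1.38. The number of window anchors called was 4. It was 3 with library totals in place of TMM, and 2 with the DESeq2 Wald test, without a count minimum and with pairs of at least 20 kb. The number of window pairs called was 2. It was 3 with library totals in place of TMM, and 1 with the DESeq2 Wald test and without a count minimum. Of the heme genes, 1 was called; 0 were called with library totals in place of TMM, DESeq2 size factors, the DESeq2 Wald test, no count minimum or pairs of at least 20 kb, and 0 to 1 when single libraries were left out. The replicate block, with the replicate number as a term, called 4 window anchors, 2 window pairs and 1 heme gene (Uros). The numbers do not pair the lines. The log2 difference of replicate 1 from replicate 2 in B6 was correlated with that in D2. The correlation was 0.003 over 39359 anchors and -0.05 over 13804 pairs with at least 100 counts.

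The run of 3 anchors became 5 when a D2 mean 25% above the B6 mean sufficed, and 2 to 4 when single libraries were left out. It became 6 (within 62466953 to 62667925, with other anchors of that span left out) with pairs at a q-value under 0.01 in at least 1 library. That filter lets pairs in through the strain where they are high, so it is no separate measure of the extent. Another alternative, added after seeing the data, set aside the pairs among the run anchors and, for all other anchors, the pairs that reach the run. It left 3. The log2 ratio of pairs within the run was 1.79 with pairs of at least 20 kb, which leaves 1 pair of 9 counts, and 1.60 to 1.68 when single libraries were left out. For pairs with no anchor in the run it was 0.24 with at least 20 counts per pair, 0.11 with pairs of at least 20 kb, and 0.13 to 0.20 when single libraries were left out. For pairs that leave the run it was 1.05 to 1.29 in those fits. None of these window values changed sign in the alternatives run. Counts limit single pairs: 44 of the 471 pairs reached 20 counts over the 4 libraries together.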

Other observations

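Before the window, a stretch of anchors among the Mup genes, which encode the major urinary proteins, was also higher in D2. The 6 tested anchors from 61943829 to 62051711 were all raised, with log2 ratios of 0.67 to 2.35, and 4 of them were called higher by edgeR's quasi-likelihood test, where 3.75% of all tested anchors were raised and 2.67% called higher. The stretch was picked after its values were seen, so these counts are a description. The anchor at 61960274 to 61978320 held 65 and 62 counts in B6 and 196 and 160 in D2 (fitted log2 fold change 1.53, SE 0.19). The anchor at 61985901 to 61994175 held 43 and 35 counts in B6 and 127 and 98 in D2, and the anchor at 62019973 to 62027007 held 16 and 29 counts in B6 and 74 and 72 in D2. Mup genes and pseudogenes are near-identical copies, and how reads from such copies were assigned is not given in the sources used here. Between this stretch and the Zfp37 gene, the anchor at 62163847 to 62167747 held only 5 and 7 counts in B6 and 3 and 8 in D2, and the strains overlapped. The anchor at 62215359 to 62221387 was also not raised (log2 ratio 0.37). Further raised anchors, at 62199230, 62206626, 62225226 and 62261959, had log2 ratios of 0.90, 0.68, 0.63 and 0.64. Tested anchors from 62274011 up to the run were not raised. The raised anchors of the stretch and of the Alad and Hdhd3 run were therefore not continuous. Still, of the 17 tested anchors before the window, 14 had both D2 libraries above both B6 libraries and 0 had both below. Among all tested anchors, 21.5% had both above, and this too is a description. Nearer the window, the anchor over a start site of Zfp37 (62206626 to 62212337) held 82 and 78 counts in B6 and 145 and 110 in D2, a fitted log2 fold change of 0.72 (SE 0.19), and was called higher.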
